A study of Homo sapiens with 6 samples.

Results

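The genes described here encode the proteins that bring glucose into the cell, break it down to pyruvate and handle the lactate made from it. They number 38 and were taken by gene symbol from a fixed list, out of the 35424 features of the deposited table. The list holds 6 transporters of the SLC2A family, 10 enzymes of upper glycolysis, 3 enzymes that set fructose 2,6-bisphosphate and 6 enzymes of lower glycolysis. It also holds 4 lactate genes, 5 genes of pyruvate dehydrogenase and its kinases, 1 gene of gluconeogenesis and 3 of the pentose phosphate pathway. Expression was measured by RNA-seq in THP-1 cells, a line from a human monocytic leukaemia labelled as wild type, in 3 untreated libraries and 3 libraries treated with PMA. This phorbol ester switches on protein kinase C, and THP-1 cells exposed to it take on features of macrophages. The sources used here give neither its dose nor its duration for these libraries, and both groups come from the same line. A legend of the study describes the RNA-seq as biologically independent experiments, whereas the labels give only a replicate number.

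In glycolysis, glucose is phosphorylated by hexokinases, committed by phosphofructokinase-1 and split by aldolase, and the lower steps yield ATP and pyruvate. Pyruvate is either reduced to lactate by lactate dehydrogenase and exported by monocarboxylate transporters, or converted to acetyl-CoA in mitochondria by pyruvate dehydrogenase. Monocytes and macrophages are known to change their reliance on these routes when they mature or are activated, and many steps are served by several isoenzymes encoded by separate genes.

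Summed counts ranged from 61547700 to 88227830 without PMA and from 64361886 to 65698834 with it. PMA replicates 2 and 3 differed less than the other pairs within a group. On counts divided by 4, their mean chi-square was 2.76 per gene, against 14.1 to 33.2 for the other pairs. PMA replicates 2 and 3 were kept as separate replicates. Of 11 markers of a monocytic line, 9 reached an FPKM of 1 in at least 1 library, and CD14 and MPO did not. FPKM, fragments relative to the length of the gene and the size of the library, is used below for levels. Of 37 markers of other cell types, 27 were in the table, 9 reached an FPKM of 1 and none was at 0 in all 6 libraries. The endothelial markers had a summed FPKM of 13.6 to 14.9 without PMA and 125 to 143 with it, most of it from PECAM1, which myeloid cells also express. The summed B cell markers moved from between 1.50 and 1.58 to between 6.25 and 7.19, and those of erythroid cells stayed under 0.32 throughout. Their part in the results below was not tested.

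After PMA most of the pathway was lower, while a smaller group of isoforms and regulators was higher. Of the 38 genes, 34 reached an FPKM of 1 in at least 3 libraries and were tested. By edgeR's quasi-likelihood test, adjusted by Benjamini-Hochberg over all 12947 genes tested and called at an adjusted p under 0.05, 7 of the 34 rose, 18 fell and 9 did not pass. Over all tested genes, 65.5% were called, 32.7% higher and 32.8% lower, so that the share of glycolytic genes called lower, 52.9%, was above the background and the share called higher, 20.6%, was below it. The median log2 fold change of the 34 genes was -0.51, beside -0.01 over all tested genes. Of the 34, 3 rose at least 2-fold (PFKFB4, SLC2A3 and ENO2) and 3 fell at least 2-fold (SLC2A5, PFKM and LDHA), against 14.5% and 8.38% of all tested genes. On the CPM scale (counts relative to library size), the 2 groups of libraries did not overlap for 7 genes that were higher and 20 that were lower after PMA, beside 35.2% and 35.2% of all tested genes. In a bulk sample, fewer expressing cells and less RNA per cell cannot be told apart.

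**Figure D1:**
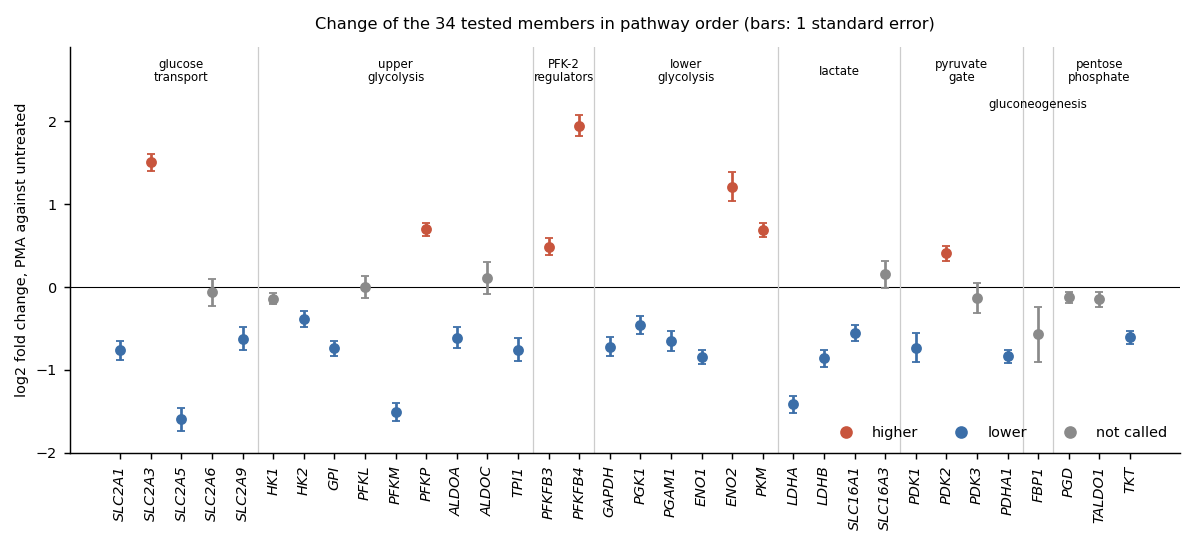
Log2 fold change (PMA against untreated) of the 34 tested genes, in the order of the pathway; points are the estimates of edgeR and bars are 1 standard error. The 7 genes called higher lie between 0.41 (PDK2) and 1.95 (PFKFB4), and the 18 called lower between -0.39 (HK2) and -1.60 (SLC2A5).

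The 38 genes together took 1.14% to 1.32% of all FPKM without PMA and 0.82% to 0.96% with it. With mitochondrially encoded genes left out, the shares were 1.61% to 1.68% and 1.17% to 1.31%. The groups did not overlap on either scale. PMA replicate 1 had the highest value of its group for 29 of the 34 tested genes, and untreated replicate 1 for 20 of 34. When PMA replicate 1 was left out, FBP1 (log2 fold change -1.01, edgeR adjusted p = 0.00903) and TALDO1 (log2 fold change -0.23, edgeR adjusted p = 0.0171) joined the genes called lower, which made 20, while 7 were still called higher. Without each of the other libraries the counts stayed at 7 and 18.

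Promoters are shown for PFKFB4, the gene with the largest rise, for ENO2, which rose while the main enolase fell, and for LDHA, the lactate gene with the largest fall. Each window runs from 250 bases before to 50 after the start of the gene's first listed RefSeq transcript (GRCh38.p14). Capitals mark ACGTG (the core of the hypoxia response element), TGANTCA and GGGCGG (the SP1 box) on either strand. The pattern TGANTCA allows any base at N, so it is wider than the AP-1 or phorbol ester response element (TGACTCA or TGAGTCA). The PFKFB4 window lies at chr3:48556754-48557053 on the minus strand, inside the span that the table gives for the gene.
PFKFB4: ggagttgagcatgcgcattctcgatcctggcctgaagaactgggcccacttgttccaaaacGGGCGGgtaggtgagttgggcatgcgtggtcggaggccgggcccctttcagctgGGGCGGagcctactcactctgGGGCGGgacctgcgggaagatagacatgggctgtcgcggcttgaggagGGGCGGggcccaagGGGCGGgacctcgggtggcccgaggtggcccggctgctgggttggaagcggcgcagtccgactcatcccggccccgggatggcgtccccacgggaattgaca
The ENO2 window lies at chr12:6914330-6914629 on the plus strand, also inside the gene's span.
ENO2: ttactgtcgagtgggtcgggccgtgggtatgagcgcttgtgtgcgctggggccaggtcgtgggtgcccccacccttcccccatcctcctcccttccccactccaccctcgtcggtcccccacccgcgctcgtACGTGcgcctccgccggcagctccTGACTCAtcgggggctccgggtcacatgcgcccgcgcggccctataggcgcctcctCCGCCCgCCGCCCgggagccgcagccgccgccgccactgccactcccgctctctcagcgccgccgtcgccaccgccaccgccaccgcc
The LDHA window lies at chr11:18394313-18394612 on the plus strand.
LDHA: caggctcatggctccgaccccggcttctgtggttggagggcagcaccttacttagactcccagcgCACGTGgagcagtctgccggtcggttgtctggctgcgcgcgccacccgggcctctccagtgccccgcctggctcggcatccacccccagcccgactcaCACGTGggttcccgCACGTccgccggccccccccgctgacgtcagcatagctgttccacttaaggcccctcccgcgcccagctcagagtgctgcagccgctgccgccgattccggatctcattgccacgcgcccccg
Matches begin at 118 bases before the start (ACGTG) and 94 bases before it (TGANTCA) in ENO2. In LDHA there are 5 matches to ACGTG, of which 4 are the 2 strands of a pair of CACGTG letters (the E-box), since that run reads the same on both strands. PFKFB4 holds 5 matches to GGGCGG and none to the other 3 motifs.

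Of the 38 genes, 35 matched a promoter in the RefSeq table, and PFKFB2, SLC16A1 and SLC2A3 did not. ACGTG was in the first listed promoter of 11 of the 35 genes (31.4%), beside 21.6% of the 27305 genes of the table. TGANTCA was in 1 of 35 (2.86%, ENO2), beside 7.76% of all genes. CACGTG, which also holds ACGTG, was in 3 of 35 (8.57%), beside 7.44%. GGGCGG was in 26 of 35 (74.3%), beside 44.6%. A match is a description of the letters in the window and was not tested for binding.

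Glucose enters cells through the SLC2A transporters, of which SLC2A1 (GLUT1) and SLC2A3 (GLUT3) carry glucose, SLC2A5 (GLUT5) carries fructose and SLC2A9 (GLUT9) carries urate. SLC2A3, at chr12:7919230-7936187 on hg38, had an FPKM of 1.36, 1.29 and 1.35 in untreated replicates 1 to 3 and of 3.55, 3.77 and 3.82 in PMA replicates 1 to 3. It rose 2.84-fold (log2 fold change 1.51, SE 0.10, edgeR adjusted p = 8.72e-06), and each PMA library was above each untreated one. SLC2A14, a near-identical paralog whose reads the counting may divide with SLC2A3, was below an FPKM of 0.60 in every library and was not tested. In contrast, SLC2A1, the transporter with the highest level of the 6, had an FPKM of 25.8, 23.4 and 19.6 without PMA and 14.8, 12.7 and 12.0 with it. The log2 fold change of SLC2A1 was -0.77 (SE 0.12, edgeR adjusted p = 0.000655), and it remained the leading transporter in all 6 libraries.

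The fructose transporter SLC2A5, at chr1:9035106-9088457, showed the largest fall of the 34 genes. Its FPKM was 13.8, 12.4 and 9.99 without PMA and 4.51, 3.46 and 3.70 with PMA, 3.03-fold higher without PMA (log2 fold change -1.60, SE 0.14, edgeR adjusted p = 3.54e-05). The groups were well apart. The urate transporter SLC2A9 fell as well (log2 fold change -0.63, SE 0.14), whereas SLC2A6 had -0.06 (SE 0.17) and did not pass. SLC2A8 was at an FPKM of 0.87 to 1.50 in the 6 libraries and was not tested. As a share of the summed FPKM of the 6 transporters, SLC2A3 moved from 2.88% ± 0.45 (SD, n = 3) to 12.7% ± 1.67 (SD, n = 3), SLC2A5 from 25.6% to 13.1% and SLC2A1 from 48.8% to 44.5%. The summed FPKM of the family was 0.628 of the untreated level after PMA.

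**Figure D2:**
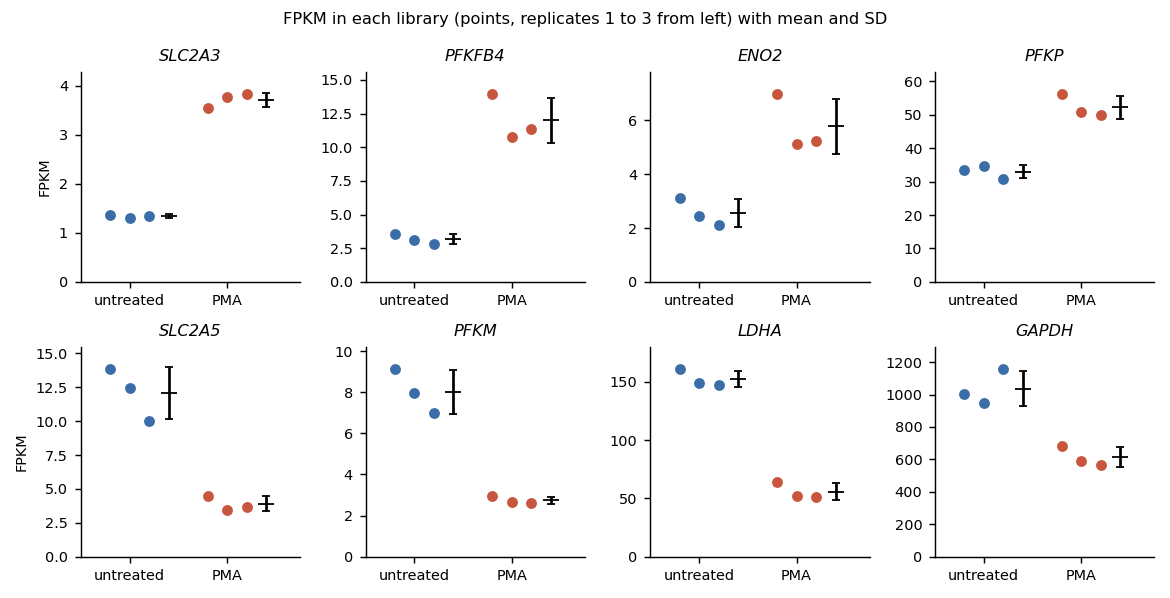
FPKM (linear axis from 0) of 8 genes in each library, with the 3 replicates of a group from left to right and the group mean and SD beside them. SLC2A3, PFKFB4, ENO2 and PFKP have all 3 PMA points above all untreated points, and SLC2A5, PFKM, LDHA and GAPDH have them below. PMA replicate 1 is the highest of its group in each panel but SLC2A3.

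Hexokinases trap glucose in the cell as glucose 6-phosphate. HK2, the inducible form, had an FPKM of 19.6, 20.3 and 15.9 without PMA and 14.1, 13.1 and 14.3 with PMA (log2 fold change -0.39, SE 0.10, edgeR adjusted p = 0.00748). This was the smallest fall of the 18 called, and the groups were still apart. HK1, the form of most tissues, led HK2 in every library and had a log2 fold change of -0.14 (SE 0.07, edgeR adjusted p = 0.0962). HK3, known from myeloid cells, reached at most 0.18 FPKM, in PMA replicate 1. GPI, which turns glucose 6-phosphate into fructose 6-phosphate, fell by 0.74 on the log2 scale (SE 0.09).

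Phosphofructokinase-1, the committing enzyme of glycolysis, is built from liver (PFKL), muscle (PFKM) and platelet (PFKP) subunits, of which the first did not pass, the second fell and the last rose. PFKM, at chr12:48105139-48146404, had an FPKM of 9.11, 7.97 and 6.97 without PMA and 2.94, 2.67 and 2.61 with PMA (log2 fold change -1.51, SE 0.11, edgeR adjusted p = 1.38e-05). PFKP had 33.4, 34.7 and 30.9 against 56.1, 50.8 and 49.9 (log2 fold change 0.70, SE 0.08, edgeR adjusted p = 0.000116). PFKL was at a log2 fold change of -0.00 (SE 0.13, edgeR adjusted p = 0.997), and its sign changed under several settings. The platelet subunit, already the leading one, went from 53.7% ± 3.05 (SD, n = 3) to 69.6% ± 1.02 (SD, n = 3) of the subunits' summed FPKM, and the muscle subunit from 13.0% to 3.65%. The summed FPKM of the 3 subunits was 1.22 times the untreated level, and the groups did not overlap. SENP1, on the opposite strand, overlaps PFKM with counts at 71.2% of those of PFKM, and its own log2 fold change was -0.13 (SE 0.11, not called).

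Further down upper glycolysis, ALDOA, the main aldolase, had an FPKM of 288, 248 and 310 without PMA and 211, 168 and 164 with PMA (log2 fold change -0.61, SE 0.13, edgeR adjusted p = 0.00405). It had the highest level of the upper enzymes. ALDOC, the brain form, had 3.99, 3.16 and 3.23 against 4.63, 3.22 and 3.05, with groups that overlapped (log2 fold change 0.11, SE 0.19, edgeR adjusted p = 0.647). TPI1, which interconverts the triose phosphates, fell by 0.76 (SE 0.14) on the log2 scale. Features overlapping ALDOA and ALDOC on the same strand carried 28.9% and 252% of their counts, so that the values of both genes rest on how those reads were divided.

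Fructose 2,6-bisphosphate is the strongest activator of phosphofructokinase-1, and its level is set by the PFKFB enzymes, each of which both makes and removes it. Both tested PFKFB genes rose. PFKFB4, at chr3:48517684-48561972, had the largest rise of the 34 genes, with an FPKM of 3.56, 3.14 and 2.83 without PMA and 13.9, 10.7 and 11.3 with PMA. The rise was 3.86-fold (log2 fold change 1.95, SE 0.13, edgeR adjusted p = 7.42e-06), with no overlap between the groups. UCN2, which overlaps PFKFB4 on the same strand with counts at 13.5% of those of PFKFB4, had a log2 fold change of 3.49 (SE 0.23). PFKFB3, the form with the highest kinase activity relative to its phosphatase activity, had 11.9, 11.2 and 9.45 against 15.8, 13.7 and 15.1 (log2 fold change 0.49, SE 0.10, edgeR adjusted p = 0.0029). PFKFB3 was still the leading form after PMA, but its share of the family's summed FPKM went from 76.5% ± 0.99 (SD, n = 3) to 55.0% ± 2.10 (SD, n = 3) as that of PFKFB4 went from 22.4% to 44.2%. PFKFB2, the heart form, was at 0.09 to 0.26 FPKM in all 6 libraries, and the summed FPKM of the family was 1.91 times the untreated level.

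Lower glycolysis, from GAPDH to PKM, held the most abundant transcripts of the pathway. GAPDH, which makes 1,3-bisphosphoglycerate and is often used as a reference gene, had an FPKM of 1005, 947 and 1155 without PMA and 686, 590 and 566 with PMA. It fell to 0.606 of the untreated level (log2 fold change -0.72, SE 0.12, edgeR adjusted p = 0.00081), every PMA library was below every untreated one, and the log2 fold change lay between -0.87 and -0.60 under the other settings tried. GAPDH alone made up 28.9% to 34.0% of the summed FPKM of the 38 genes without PMA and 26.7% to 27.1% with it. Its 28 pseudogene features summed to at most 0.858% of its counts.

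Of the enzymes that follow GAPDH, 3 fell and 2 rose. PGK1, which makes ATP from 1,3-bisphosphoglycerate, had a log2 fold change of -0.46 (SE 0.11), the mutase PGAM1 of -0.66 (SE 0.12) and the main enolase ENO1 of -0.85 (SE 0.08). Each was called. ENO2, the neuronal enolase, at chr12:6913745-6923696, went the other way, with an FPKM of 3.11, 2.45 and 2.10 against 6.97, 5.13 and 5.25 (log2 fold change 1.21, SE 0.18, edgeR adjusted p = 0.000512). Despite its rise, ENO2 was still 2.62% ± 0.23 (SD, n = 3) of the summed FPKM of the 2 enolases, from 0.64% ± 0.11 (SD, n = 3), and the sum was 0.553 of the untreated level. LRRC23 overlaps ENO2 on the same strand with counts at 17.4% of those of ENO2. PKM, the pyruvate kinase, was the only enzyme of lower glycolysis besides ENO2 that rose (1.61-fold, log2 fold change 0.69, SE 0.09). The gene values do not separate the M1 and M2 splice forms of PKM.

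Lactate dehydrogenase is a tetramer of LDHA subunits, which favour the making of lactate, and LDHB subunits, which favour its use. Both fell, LDHA with the larger estimate. LDHA, at chr11:18394560-18408218, had an FPKM of 161, 149 and 147 without PMA and 64.0, 52.3 and 51.0 with PMA, 2.67-fold higher without PMA (log2 fold change -1.42, SE 0.10, edgeR adjusted p = 1.25e-05). LDHB had 215, 207 and 193 against 126, 106 and 98.4 (log2 fold change -0.86, SE 0.10, edgeR adjusted p = 0.00016). The LDHB share of the pair went from 57.3% ± 0.70 (SD, n = 3) to 66.4% ± 0.56 (SD, n = 3), and the summed FPKM of the pair was 0.464 of the untreated level, the lowest ratio of the 9 families.

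Lactate leaves or enters cells through the monocarboxylate transporters. SLC16A1 (MCT1) fell (log2 fold change -0.56, SE 0.10), whereas SLC16A3 (MCT4), the form of glycolytic cells, had an FPKM of 37.1, 30.2 and 26.8 against 41.9, 28.8 and 31.2. The groups of SLC16A3 overlapped (log2 fold change 0.15, SE 0.16, edgeR adjusted p = 0.439). CSNK1D, on the opposite strand, overlaps SLC16A3 with counts at 77.7% of those of SLC16A3. The SLC16A3 share of the pair was 28.9% ± 3.69 (SD, n = 3) before and 39.9% ± 7.46 (SD, n = 3) after PMA, a gain of 10.9 percentage points that was 6.66 points without PMA replicate 1. BSG, the chaperone of both transporters, was at an FPKM of 98.7 to 112 in the 6 libraries (log2 fold change 0.02, SE 0.08, edgeR adjusted p = 0.825). EMB, a gene of the related lactate and pyruvate list, was called lower (log2 fold change -0.64, SE 0.14, edgeR adjusted p = 0.00447).

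Pyruvate dehydrogenase converts pyruvate to acetyl-CoA inside mitochondria, and its kinases (PDK1 to PDK4) switch it off. PDHA1, its catalytic alpha subunit, had an FPKM of 33.6, 32.4 and 33.3 without PMA and 19.3, 17.5 and 17.4 with PMA (log2 fold change -0.84, SE 0.08, edgeR adjusted p = 3.71e-05). The groups lay well apart. Among the kinases, PDK1, a known target of hypoxia-inducible factor, fell (log2 fold change -0.73, SE 0.18), PDK2, the form with the highest level here, rose (log2 fold change 0.41, SE 0.09), and PDK3 did not pass (log2 fold change -0.13, SE 0.18). PDK1 had an FPKM of 1.44, 1.64 and 1.49 without PMA and 0.66, 1.08 and 0.94 with PMA. It thus met the filter of the test only with the untreated libraries, where it was high. The rise of PDK2 was 0.26 and did not pass with no filter on low values (edgeR adjusted p = 0.07). PDK4, known from fasting, was at 0.14, 0.36 and 0.16 FPKM against 0.11, 0.09 and 0.11 and was not tested, being too low for a difference to be read. The summed FPKM of the 4 kinases was 1.02 times the untreated level, with groups that overlapped, while the PDK2 share went from 52.7% to 67.1% and the PDK1 share from 23.5% to 13.5%. The PDK4 share went from 3.27% ± 1.58 (SD, n = 3) to 1.60% ± 0.25 (SD, n = 3), a fall of 1.67 percentage points that was 0.76 points without untreated replicate 2.

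The share of 1 isoform was tested in each of 9 families, and in all 9 the groups did not overlap. HK2 (37.9% ± 2.71 to 33.9% ± 0.31, SD, n = 3) and PFKFB3 had lower shares after PMA. PDK4 did so too, at an FPKM too low for a difference to be read. PFKP, ALDOC (1.22% ± 0.17 to 1.95% ± 0.17, SD, n = 3), ENO2, LDHB, SLC16A3 and SLC2A3 had higher ones. Each exact two-sided permutation test gave p = 0.1, which is the smallest that 3 against 3 libraries allow, so that none could pass 0.05 (0.1 after Benjamini-Hochberg adjustment over the 9 families). A share within a family does not depend on how libraries are scaled to each other. PFKFB3 thus had a lower share although its own level rose, and LDHB a higher share although its own level fell.

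**Figure D3:**
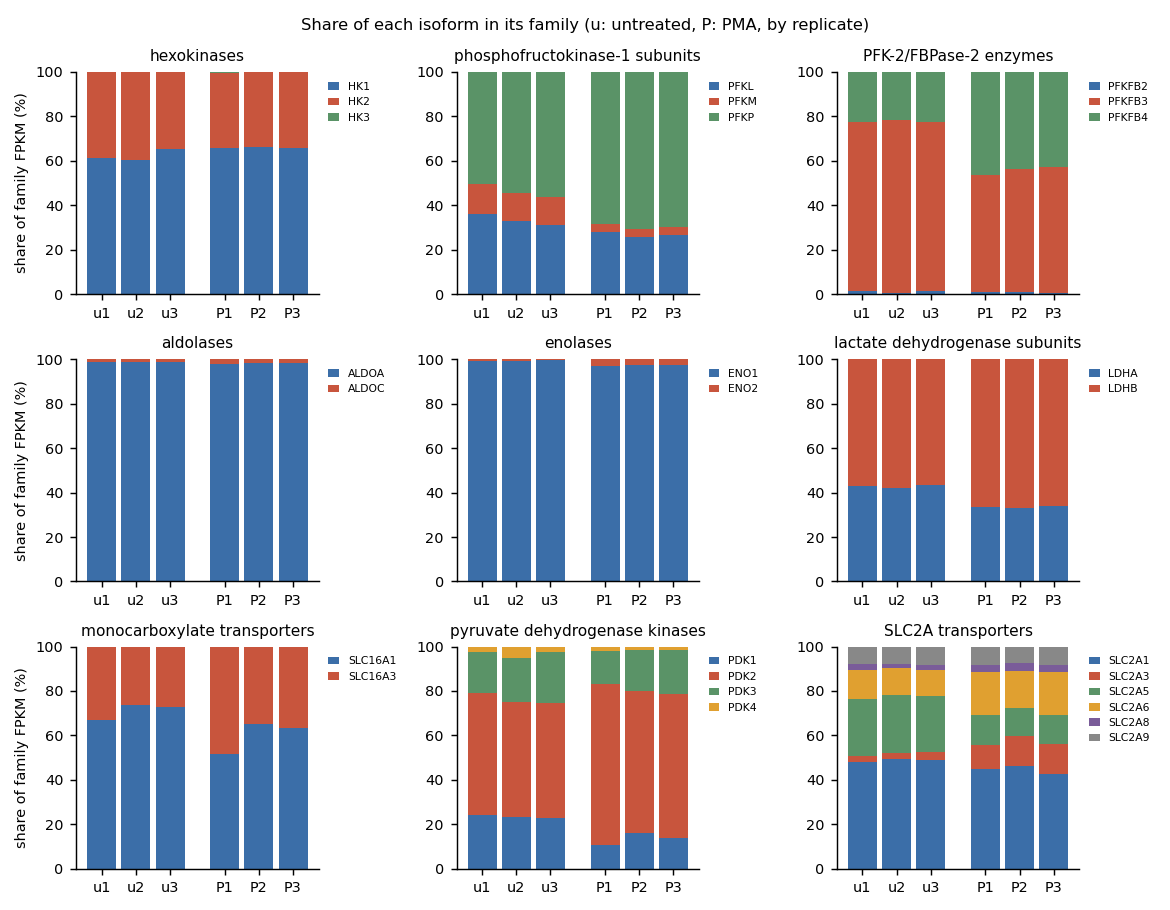
Share of each isoform in the summed FPKM of its family (percent, stacked to 100) in every library, u for untreated and P for PMA replicates 1 to 3. PFKP, PFKFB4, PDK2 and SLC2A3 take a larger part in each PMA library than in any untreated one, and the enolases and aldolases stay almost wholly ENO1 and ALDOA.

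Fructose 1,6-bisphosphatase, encoded by FBP1, reverses the phosphofructokinase step in gluconeogenesis. FBP1 had an FPKM of 1.96, 1.85 and 2.26 without PMA and 2.03, 1.14 and 0.82 with PMA. PMA replicate 1 lay within the untreated range and the other 2 below it, and the gene did not pass in the fit of all libraries (log2 fold change -0.57, SE 0.33, edgeR adjusted p = 0.16). PCAT7 overlaps FBP1 on the opposite strand with counts at 24.4% of those of FBP1.

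The pentose phosphate pathway leaves glycolysis at glucose 6-phosphate and yields NADPH and ribose. PGD, which yields NADPH, had an FPKM of 102, 103 and 101 against 94.0, 90.6 and 89.4 (log2 fold change -0.13, SE 0.07, edgeR adjusted p = 0.127). These groups did not overlap, yet the difference did not pass. Of the enzymes that return sugars to glycolysis, TKT fell (log2 fold change -0.61, SE 0.08) and TALDO1 had -0.15 (SE 0.09) and did not pass. Over the other genes of the pathway, 2 of 9 tested were called higher and 6 lower. The largest fall was that of TKTL1, a transketolase-like gene (log2 fold change -1.91, SE 0.22).

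Neighbouring routes were described from 8 lists of related genes, whose counts stand beside the 32.7% of all tested genes called higher and the 32.8% called lower. Of 18 genes tested in the tricarboxylic acid cycle, 13 were called lower, and the 18 estimates all lay below 0, the highest at -0.09 (median log2 fold change -0.40), with IDH3B (-1.05), FH (-0.94) and CS (-0.74) the furthest. Of the 17 glycogen genes tested, 3 were higher and 11 lower (median -0.37). Among the higher ones, PGM2L1 (FPKM 0.55 to 0.62 without PMA, 1.05 to 1.18 with it) passed the filter through the PMA libraries alone. GYS1, the muscle glycogen synthase, had a log2 fold change of -0.88 (SE 0.08), and PYGB, the brain glycogen phosphorylase, had 0.53 (SE 0.07). Of the 17 other lactate and pyruvate genes, 5 were higher and 6 lower. The furthest down were DLAT (-0.89) and DLD (-0.86), which encode catalytic components of the pyruvate dehydrogenase complex. Other genes of that complex in the list changed less. SLC16A8 (MCT3), a lactate transporter known from the retinal pigment epithelium, went from an FPKM of 0.26, 0.19 and 0.11 to 3.63, 3.11 and 3.18 (log2 fold change 4.17, SE 0.30, edgeR adjusted p = 1.12e-05), which kept it well below SLC16A1 and SLC16A3. It passed the filter on low values through the PMA libraries alone, so it had to differ to be tested.

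Of the 5 other glucose transporters and hexokinases tested, 2 were higher and 3 lower. Both higher ones, SLC2A10 and SLC2A13, passed the filter through the PMA libraries alone, so they had to differ to be tested. SLC2A10 had an FPKM of 0.21 to 0.30 without PMA and 1.00 to 1.25 with it (log2 fold change 2.23, SE 0.21). SLC2A13 had 0.72 to 0.74 and 1.09 to 1.49. The furthest down was SLC37A4, the glucose 6-phosphate carrier of the endoplasmic reticulum (-1.21, SE 0.11). Of 6 other glycolytic and gluconeogenic enzymes tested, 1 was higher and 2 lower, and the furthest was GPD1L (-1.18, SE 0.08).

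Of 19 regulators of glycolytic genes tested, 6 were higher (31.6%) and 7 lower (36.8%), shares near those of all tested genes (median log2 fold change -0.17). Among the higher ones, ARNT2 (FPKM 0.34 to 0.52 without PMA, 1.15 to 1.47 with it) passed the filter through the PMA libraries alone. MYC, which activates LDHA and other glycolytic genes, had an FPKM of 63.0, 71.7 and 62.5 without PMA and 17.3, 18.5 and 18.4 with PMA (log2 fold change -1.83, SE 0.08, edgeR adjusted p = 8.51e-07). HIF1A, the oxygen-regulated factor, went from 13.5, 15.0 and 16.4 to 19.4, 24.4 and 23.9 (log2 fold change 0.63, SE 0.12, edgeR adjusted p = 0.00201), and its relative EPAS1, which was under an FPKM of 1 without PMA and passed the filter through the PMA libraries alone, had 1.28 (SE 0.15). TXNIP, which restrains glucose uptake, fell by 0.36 (SE 0.07) on the log2 scale. Among hypoxia-inducible genes outside glycolysis, 7 of 17 tested were higher and 5 lower (median 0.33). BHLHE40 (3.06, SE 0.10) and NDRG1 (1.70, SE 0.10) were the furthest up of those called, and HILPDA (-1.25, SE 0.15) and BNIP3 (-1.14, SE 0.13) the furthest down.

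**Figure D4:**
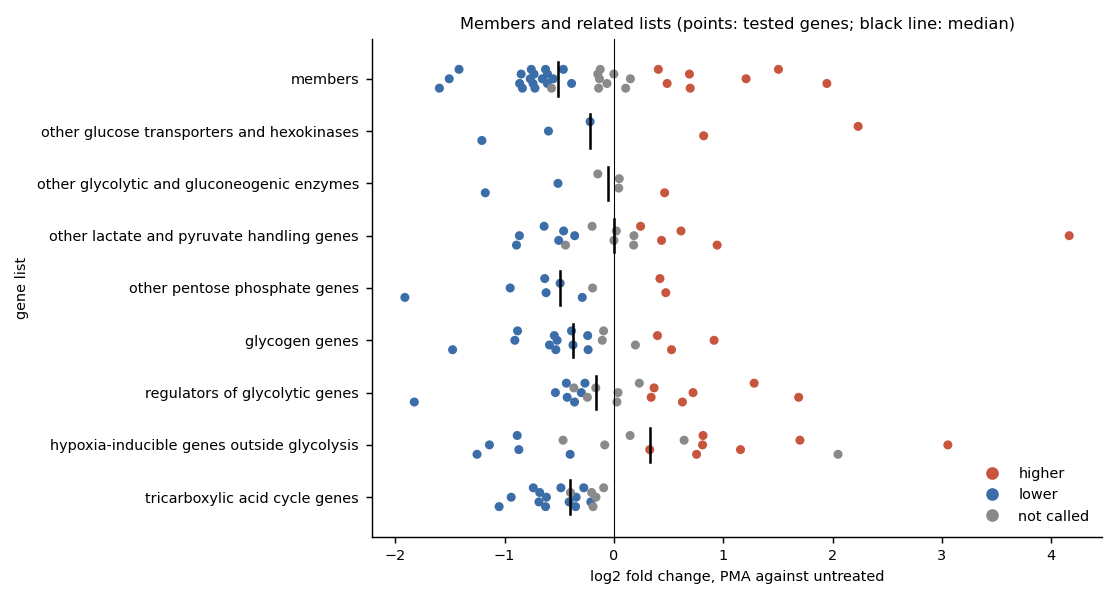
Log2 fold change (PMA against untreated) of the tested genes of the glycolytic set (members) and of 8 related lists, with black lines at the medians. The median is -0.51 for the members, -0.40 for the tricarboxylic acid cycle and 0.33 for hypoxia-inducible genes, and the 18 cycle genes all lie below 0.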

How the data were processed

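RNA-seq of THP-1 cells was analysed, 3 untreated and 3 PMA libraries, grouped by the treatment label. Per the labels and the study's methods, polyadenylated RNA was selected on oligo(dT) beads for paired-end sequencing. For each of 35424 features the authors deposited estimated counts and FPKM values in 1 table. Their processing notes name the build hg38 and the tool DESeq2. The sources used here name no aligner, counting tool or strand setting, so reads of overlapping features cannot be told apart. The deposited estimated counts are whole numbers with a different sum in each library, and rounding left them as they were. Whether they were scaled in some way is not stated. In the range from 3 to 22 they piled up at multiples of 4 (37.3% to 39.2% of values, against 25%), and the reason is not given. The deposited FPKM values are relative to the length of each gene and to library size. Depth is the summed count given above. The reads carry no molecular identifiers.

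The counts were tested with edgeR 4.0.16 (R 4.3.3; quasi-likelihood test, TMM factors 0.984 to 1.021, treatment as the only term) on 12947 genes (FPKM of 1 or more in 3 or more libraries), after keeping 1 feature per name (35042). The table held counts, so the test planned for FPKM alone was an alternative. The SE was worked back from the log2 fold change and edgeR's F statistic (their ratio after taking the root of F) and is approximate. A gene could pass the filter through 1 group alone. P-values measure the spread between these libraries. The script was tested on simulated data. Alternatives were other scalings, DESeq2 1.42.0, limma 3.58.1 on log2(FPKM + 1), log2(FPKM + 0.1) and log2(FPKM + 5), other filters, counts divided by 4, PMA replicates 2 and 3 added together, a replicate block and leaving out each library.

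Values in every library are given for genes called with an absolute log2 fold change of at least 1, for the gene with the highest level of each role, for GAPDH and for 1 isoform of each of 9 families. Of each related list, up to 3 called genes with the largest rise and up to 3 with the largest fall could be named, besides HIF1A, MYC, BSG, SLC2A14 and TXNIP. A further result that this rule covers is not reported here. The genes, lists and rules were chosen with earlier results of these data known.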

Additional observations from a re-analysis of the deposited data

How the results depend on the processing

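With no replicate number as a block, 7 of the glycolytic genes were called higher and 18 lower. With the block the same 7 and 18 were found, at a median log2 fold change of -0.51, while 4657 of all genes were called higher and 4758 lower. The labels do not say that the numbers pair the libraries. Deviations from the group mean correlated at 0.49, 0.14 and 0.11 for libraries 1, 2 and 3 (prior of 0.5 CPM) or 0.42, 0.074 and 0.057 (prior of 0.1 CPM), and untreated replicate 2 was closer to PMA replicate 3 (0.28) than to PMA replicate 2, so no pairing was assumed.

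Of the 25 glycolytic genes called, 24 kept their direction and their call under each of the 18 alternatives that tested them, and none reversed. The exception was PDK2, with no filter on low values. HK1 was called with upper quartile scaling (-0.18, edgeR adjusted p = 0.0442) and with no filter (-0.29, edgeR adjusted p = 0.0154), as was PGD with no filter (-0.27, edgeR adjusted p = 0.0192). A mean FPKM of at least 5 left fewer genes to test and gave 2433 genes higher and 2457 lower, of which 4 glycolytic genes were higher and 16 lower. The median log2 fold change of the glycolytic genes was -0.66 with no filter, a setting that moved the median of the same 12947 genes by -0.15, and -0.21 by limma on log2(FPKM + 5), where the pseudocount shrinks low genes. When each library was left out in turn, 3794 to 4359 genes were higher and 3697 to 4449 lower, 7 to 7 glycolytic genes were higher and 18 to 20 lower, and their median lay between -0.51 and -0.41. The 9 isoform shares kept their direction with counts in place of FPKM and with each library left out.

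Of the 9 genes not called, 5 changed sign under some setting. SLC2A6 was at 0.059 with a mean FPKM of at least 5 and between -0.19 and 0.084 when each library was left out in turn. PFKL was at 0.0091 with the size factors of DESeq2 and at 0.0091 with its Wald test, 0.12 with a mean FPKM of at least 5, 0.051 with PMA replicates 2 and 3 added together, 0.0042 with the replicate block and between -0.11 and 0.12 with each library left out. ALDOC was at -0.038 with no filter and between -0.11 and 0.22 with each library left out, SLC16A3 between -0.031 and 0.29, and PDK3 between -0.25 and 0.015. ALDOC, SLC16A3 and PDK3 each changed sign without PMA replicate 1. The cause of these changes was not tested. Genes under an FPKM of 1, such as HK3, PFKFB2 and PDK4, are too low here for a difference to be read.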
